A study of Mus musculus with 6 samples.

Results

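The genes of laminins, integrins, nidogens and fibronectin were examined in embryonic submandibular glands (eSMGs) of the mouse. Members were taken by symbol, as all laminin chains (Lama, Lamb and Lamc), all integrin alpha and beta chains, the nidogens Nid1 and Nid2, fibronectin (Fn1), perlecan (Hspg2) and Btbd7. Of 23260 gene lines in the count files, 42 were members, namely 11 laminin chains, 26 integrin chains and the 5 others. The eSMGs came from E14 embryos of ICR mice and were cultured ex vivo as control or with 50 µM AMD3100, a small antagonist of the chemokine receptor CXCR4, and each of the 3 control and 3 AMD3100 libraries was made from a tube that pooled up to 10 whole glands, collected 6 h after treatment. Whole glands hold epithelium, mesenchyme, nerve and vessels, so that fewer cells of a type and less RNA per cell cannot be told apart. A kit for 3′ mRNA sequencing was used, which reads the end of each transcript. Library totals ran from 9051595 counts in AMD3100 replicate 3 to 14393031 in AMD3100 replicate 1. Values are counts per 1000000 counts of a library (CPM) after TMM normalization, which scales each library so that most genes keep their level, and since a transcript gives about a read whatever its length, CPM was not divided by gene length. A level of 3 counts, the smallest taken as detected, stood at 0.173 to 0.368 CPM, a floor that covers counting error only. The labels do not say that the replicates came from separate cultures, and p-values measure the spread between these libraries.

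Laminins are trimers of an alpha, a beta and a gamma chain that polymerize into the basement membrane, the sheet beneath an epithelium. Nidogens and perlecan link this sheet to type IV collagen, and integrins, pairs of an alpha and a beta chain, bind the cell to it and to fibronectin. In the submandibular gland, fibronectin assembles at the base of the clefts that divide an end bud, and Btbd7 is known as a regulator of cleft progression induced there by fibronectin.

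Libraries differed by replicate number as well as by treatment. Replicate 3 of both groups stood apart from the 4 other libraries, and its difference reached the members. In 12 of the 33 members tested (36.4%), both replicate 3 libraries lay below the 4 others, against 21.1% of all genes tested. Among these 12 were the laminin chains Lama1, Lama5 and Lamb2, the integrin chains Itga3, Itga6, Itga8, Itga9, Itgb1 and Itgb4, and Nid1 and Btbd7. Both replicate 3 libraries lay above the 4 others for 2 members (6.06%), Fn1 and Itga2b, against 23.1% of all genes. For Itga3, the alpha chain of a laminin receptor of epithelia, control replicates 1 to 3 had 19.4, 15.2 and 2.59 CPM and AMD3100 replicates 1 to 3 had 25.7, 17.1 and 2.09 CPM. Replicate 3 was thus low in either group, with a log2 ratio to the mean of replicates 1 and 2 of -2.53 in control and -3.08 in AMD3100. Below, 6 values in a row are control replicates 1 to 3 and then AMD3100 replicates 1 to 3.

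**Figure D1:**
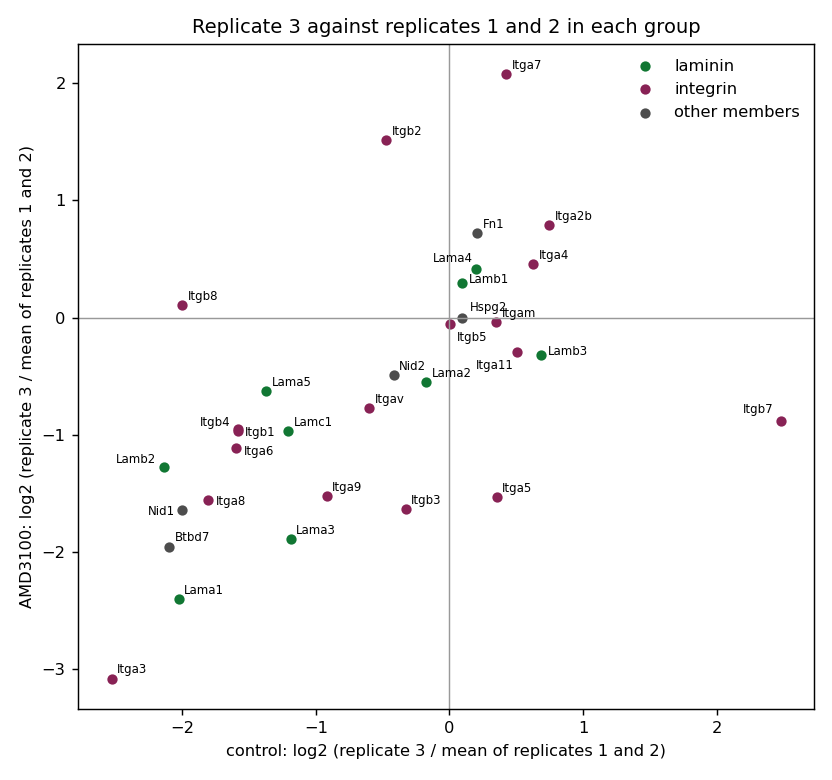
Each point is a tested member. The horizontal axis gives the log2 ratio of control replicate 3 to the mean of control replicates 1 and 2 and the vertical axis the same for AMD3100, with 0.5 CPM added to each value, and 17 of the 32 members drawn lie at the lower left, where replicate 3 was lower in both groups.

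Marker lists of cell types moved with replicate 3. The 10 mesenchyme markers, led by Col3a1, summed to 4721, 4773 and 2487 CPM in control and 4651, 4588 and 1958 CPM in AMD3100. The 10 skeletal muscle markers, led by Myog, summed to 312, 327 and 1376 CPM in control and 218, 168 and 1910 CPM in AMD3100. Of the muscle markers, 9 of 10 were highest in replicate 3 of both groups. Of the mesenchyme markers, 6 of 10 were lowest there in both groups, and the sums were carried by Col1a1, Col1a2 and Col3a1, without which they were 1432, 1494 and 1363 CPM in control and 1354, 1341 and 919 CPM in AMD3100. Lum went the other way, highest in replicate 3 of each group, as did Pdgfrb in control. The 10 epithelium markers, led by the basal keratin gene Krt15, summed to 1911, 1894 and 1373 CPM in control and 2311, 1961 and 3375 CPM in AMD3100. The high sum of AMD3100 replicate 3 was that of Krt15 (2472 CPM), without which the sums were 870, 882 and 485 CPM in control and 944, 945 and 903 CPM in AMD3100. Of these sums, Cdh1 made 337, 302 and 211 CPM in control and 344, 394 and 507 CPM in AMD3100, where it was highest in replicate 3. Of the epithelium markers, 5 of 10 (Epcam, Krt5, Krt8, Krt14 and Cldn7) were lowest in replicate 3 of both groups, while Cldn4 was highest there in both. All 30 markers of these 3 lists had counts in at least 1 library and all 30 were tested, and their part in the values of the members was not tested.

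AMD3100-treated and control eSMGs were compared with edgeR's quasi-likelihood test over the 13610 genes that passed its filter on low counts, of which 33 were members. A gene was called at a fold change over 1.5 with an unadjusted p-value under 0.05. These are the thresholds in the text of the study, whose figure captions give a stricter fold change. Of the 33 members, 1 was called, Lamc1, which was lower in AMD3100. It makes 3.03% of the members tested, against 1.28% of all genes called lower, 0.397% called higher and 1.68% called either way. After Benjamini-Hochberg adjustment over all genes, 0 members and 0% of all genes had a p-value under 0.05 in edgeR, where 1 member had an unadjusted p-value under 0.05. DESeq2 gave 2 members with an unadjusted p-value under 0.05, beside 2.4% of all genes, and after adjustment 0 members and 5 of all genes. Fold changes were small for most members, as 22 of the 33 lay within 0.5 of zero on the log2 scale. Their median was 0.05, beside 0.02 for all genes, with 19 members higher and 14 lower in AMD3100.

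Across genes, the replicate 3 libraries of both groups varied together, with a correlation of deviations from group means of 0.688. For replicates 1 and 2, same-numbered libraries (0.284 and 0.259) did not stand out from crossed ones. Control 2 with AMD3100 1 gave 0.307 and control 1 with AMD3100 2 gave 0.217. How replicates 1 and 2 pair is therefore undecided, and pairs and block follow the numbers of the labels. In the fit with this block 3 members were called, Lamc1 lower and Itgav and Itgb3 higher. These are 9.09% of the members, against 2.9% of all genes called lower, 1.49% called higher and 4.39% called either way with the block. With the block, 0.022% of all genes had an adjusted p-value under 0.05, and none of these was a member, the lowest adjusted p-value among members being 0.24, that of Lamc1. Within same-numbered pairs, 6 members (18.2%) were higher in AMD3100 in all 3 pairs, namely Itgav, Itgb3, Lama3, Lama4, Lamb1 and Lamb3, against 15.7% of all genes. Lamc1 and Nid2 were lower in all 3 pairs, 6.06% of the members against 14.6% of all genes. Of the tested members, Lamb3 was the one whose groups did not overlap, with all AMD3100 libraries above all controls. Of all genes, 3.28% had such a separation upward and 4.17% downward.

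**Figure D2:**
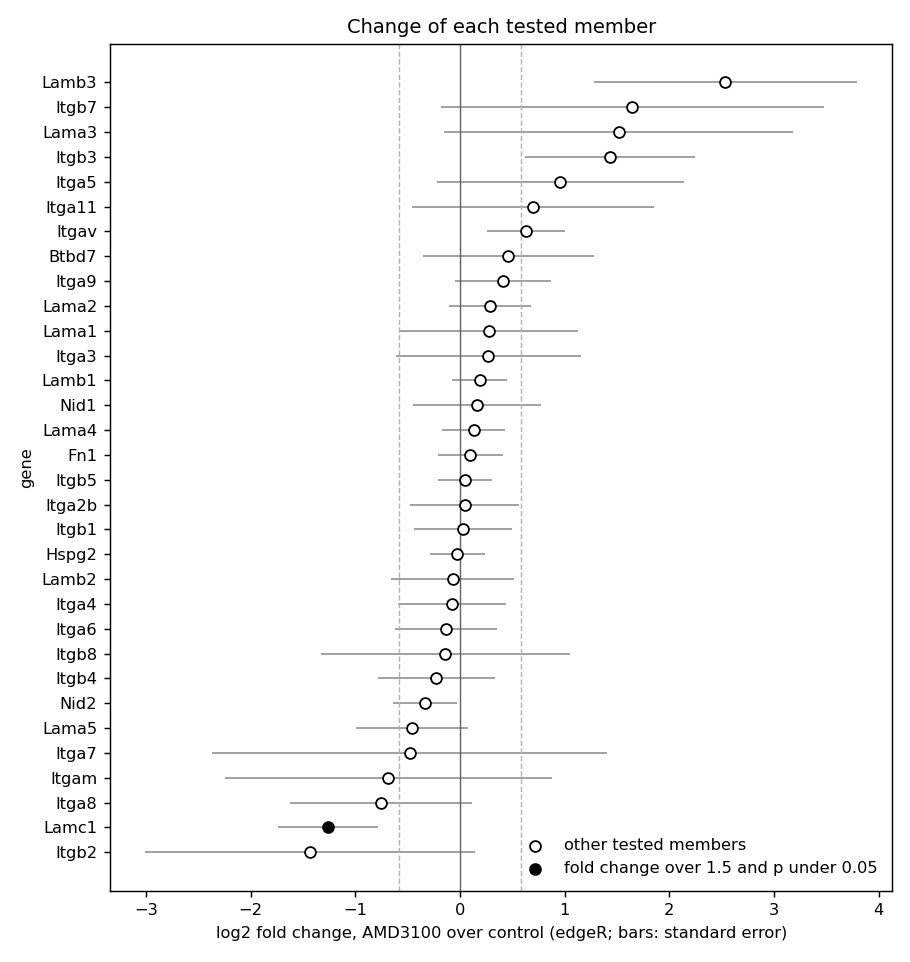
Points give the log2 fold change of AMD3100 over control for 32 of the 33 members tested and bars its standard error, both from edgeR, and dashed lines mark a fold change of 1.5. Lamc1, filled, is the member past both thresholds, and most bars span zero.

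Among the laminin chains, Lamc1 was the one called, and it was lower in AMD3100. Lamc1, which encodes the gamma 1 chain shared by most laminin trimers, lies at chr1:153218922-153332786 (GRCm38). It had 59.7, 56.5 and 24.9 CPM in control and 15.9, 31.2 and 11.8 CPM in AMD3100, from 682, 776 and 250 counts and 276, 339 and 96 counts. Each AMD3100 library was below the control library of its number, but the groups overlapped, as AMD3100 replicate 2 was above control replicate 3. The means were 47.1 ± 19.2 CPM in control and 19.6 ± 10.3 CPM in AMD3100 (SD, n = 3 each). Lamc1 was 2.39-fold lower in AMD3100, a log2 fold change of -1.26 (SE 0.48, edgeR adjusted p = 1.0). With the replicate block the size was the same and the error smaller, at -1.28 (SE 0.27, edgeR adjusted p = 0.24). Without replicate 3 of either group, Lamc1 stood at -1.32 on the log2 scale and was called (edgeR adjusted p = 0.746). The call nonetheless rested on single libraries, as it was lost without control replicate 1 (log2 fold change -1.06), control replicate 2 (-1.11), AMD3100 replicate 1 (-1.13) or AMD3100 replicate 3 (-1.01). Lamc1 was still called without control replicate 3 (-1.56) or AMD3100 replicate 2 (-1.76).

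Counts of Lamc1 were also set against those of Lamb1, the beta 1 chain that joins gamma 1 in the same trimers, a ratio within each library that needs no normalization. For every 100 Lamb1 counts there were 19.7, 19.5 and 7.87 Lamc1 counts in control and 4.79, 10.1 and 3.0 in AMD3100. The ratio was lower in AMD3100 in all 3 pairs. As Lamc1 was lower and Lamb1 higher in each pair, this is no separate test of Lamc1. Lamc3 was not tested, with 0 counts in 4 libraries and 33 and 7 counts in AMD3100 replicates 1 and 2.

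**Figure D3:**
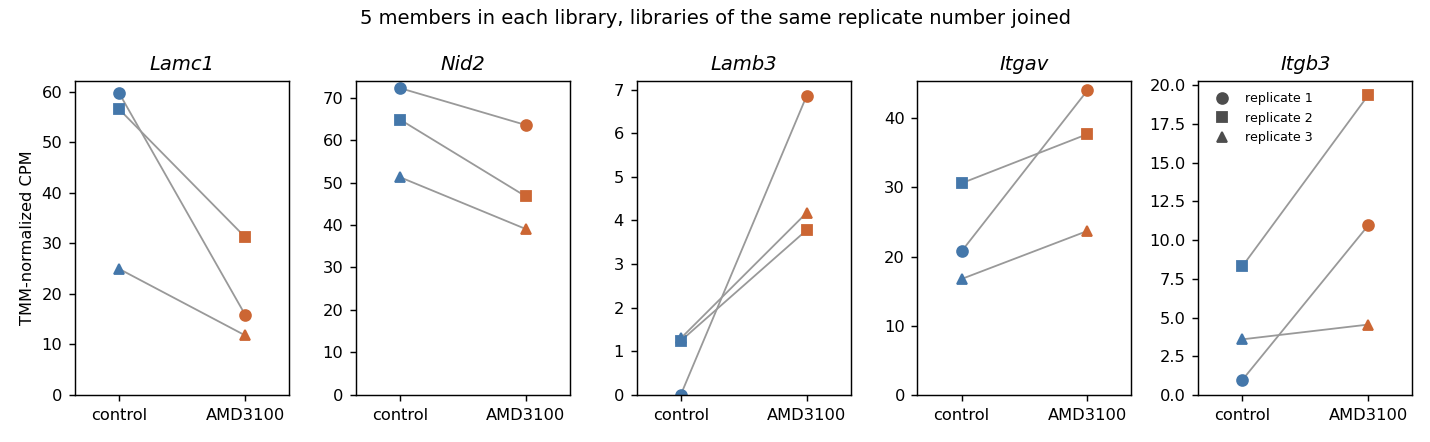
TMM-normalized CPM of 5 members in the 6 libraries, on linear axes that start at 0 and differ between panels, with lines joining libraries of the same replicate number. In each panel the 3 lines run the same way, down for Lamc1 and Nid2 and up for Lamb3, Itgav and Itgb3, and only for Lamb3 are the AMD3100 values all above the control values.

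Among the beta chains, Lamb1 had the most counts of any member and was even across libraries. It had 304, 289 and 317 CPM in control and 332, 310.3 and 394 CPM in AMD3100, with a log2 fold change of 0.19 (SE 0.26), and replicate 3 was the highest library of each group. Lamb3 encodes the beta 3 chain, of the laminin of hemidesmosomes, and lies at chr1:193294353-193343878. It was scarce in control, with 0, 17 and 13 counts or 0, 1.24 and 1.30 CPM, and had 119, 41 and 34 counts or 6.85, 3.78 and 4.18 CPM in AMD3100. The lowest AMD3100 library was thus above the highest control library. Lamb3 was singled out for this separation, so no test of the separation itself is given. Lamb3 had a log2 fold change of 2.53 (SE 1.26, edgeR adjusted p = 1.0) and was not called, nor was it with the replicate block (2.92, SE 1.52). DESeq2 (2.55, adjusted p = 1.0) and limma-voom after quantile normalization (3.20, adjusted p = 1.0) did call it. With 0 counts in control replicate 1, Lamb3 needed libraries of AMD3100, the group where it was high, to pass the filter on low counts. These 2 calls thus add nothing to the separation. Without the filter, edgeR did not call Lamb3 (2.53). Lamb2, the beta 2 chain, was low in replicate 3 of both groups, at 76.1, 89.1 and 18.3 CPM in control and 89.1, 55.8 and 29.7 CPM in AMD3100 (-0.07, SE 0.59).

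The upstream sequences of Lamb1, the most abundant member, of Lamb3, the member whose groups did not overlap, and of Itgav, an integrin gene higher in all 3 pairs, are given as the sequence before an annotated transcript start of each gene. The windows are 250 bases long, from RefSeq on GRCm38.p6, all on the plus strand and written 5′ to 3′, at chr12:31265043-31265292, chr1:193301744-193301993 (the first of 2 starts listed for Lamb3) and chr2:83724147-83724396. Each lies wholly or partly inside the annotated span of its gene, and which start gave the counted transcripts was not tested. Capitals mark the GC box GGGCGG or its other strand CCGCCC.
Lamb1: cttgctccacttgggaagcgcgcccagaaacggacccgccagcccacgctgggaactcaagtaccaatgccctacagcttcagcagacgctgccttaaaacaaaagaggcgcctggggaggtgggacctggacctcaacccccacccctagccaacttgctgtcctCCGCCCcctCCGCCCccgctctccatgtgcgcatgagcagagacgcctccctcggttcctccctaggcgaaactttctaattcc
Lamb3: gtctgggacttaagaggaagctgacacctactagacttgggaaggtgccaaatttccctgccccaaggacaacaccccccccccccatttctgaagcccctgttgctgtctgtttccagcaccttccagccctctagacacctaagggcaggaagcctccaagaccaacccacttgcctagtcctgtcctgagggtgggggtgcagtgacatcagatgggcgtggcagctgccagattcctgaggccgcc
Itgav: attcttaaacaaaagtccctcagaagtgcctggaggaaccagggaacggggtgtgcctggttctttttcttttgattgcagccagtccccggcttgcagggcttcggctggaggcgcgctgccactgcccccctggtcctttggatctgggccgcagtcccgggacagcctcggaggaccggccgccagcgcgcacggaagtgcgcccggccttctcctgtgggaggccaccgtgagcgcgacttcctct
The Lamb1 window held 2 GC boxes and a CCAAT box, and its GC content was 62.0%. The windows of Lamb3 (58.8% GC) and Itgav (64.4% GC) held neither box. TATAAA was in none of the 3. Of 29 windows for the 26 members in the RefSeq table, 12 held a GC box, 5 held CCAAT and 0 held TATAAA on either strand, beside 32.7%, 33.8% and 12.4% of all 32851 windows. These matches describe letters in a window and say nothing of factors bound there.

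The alpha chains had no call. Lama4, a chain of mesenchyme and vessels, was the most abundant, with 47.0, 66.9 and 65.5 CPM in control and 49.4, 68.4 and 78.7 CPM in AMD3100. It was slightly higher in AMD3100 in each pair, with a log2 fold change (0.13) below the SE (0.30). Lama5, the main alpha chain of epithelial basement membranes, had 13.7, 17.3 and 5.68 CPM in control and 13.4, 6.91 and 6.39 CPM in AMD3100 (-0.46, SE 0.54). Lama1, an alpha chain of early basement membranes, had 6.30, 9.76 and 1.60 CPM in control and 9.33, 10.5 and 1.47 CPM in AMD3100 (0.27, SE 0.85). Replicate 3 was the lowest library of each group for both genes. Lama2, the chain of muscle basement membrane, had 10.8 to 13.7 CPM in control and 10.8 to 19.3 CPM in AMD3100 (0.29, SE 0.39), without a gap at replicate 3. Lama3, the alpha chain that joins beta 3, was scarce and uneven, with 25, 0 and 2 counts in control and 40, 44 and 4 counts in AMD3100 (1.51, SE 1.67), an estimate that ran from 0.82 without AMD3100 replicate 2 to 4.44 without control replicate 1.

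**Figure D4:**
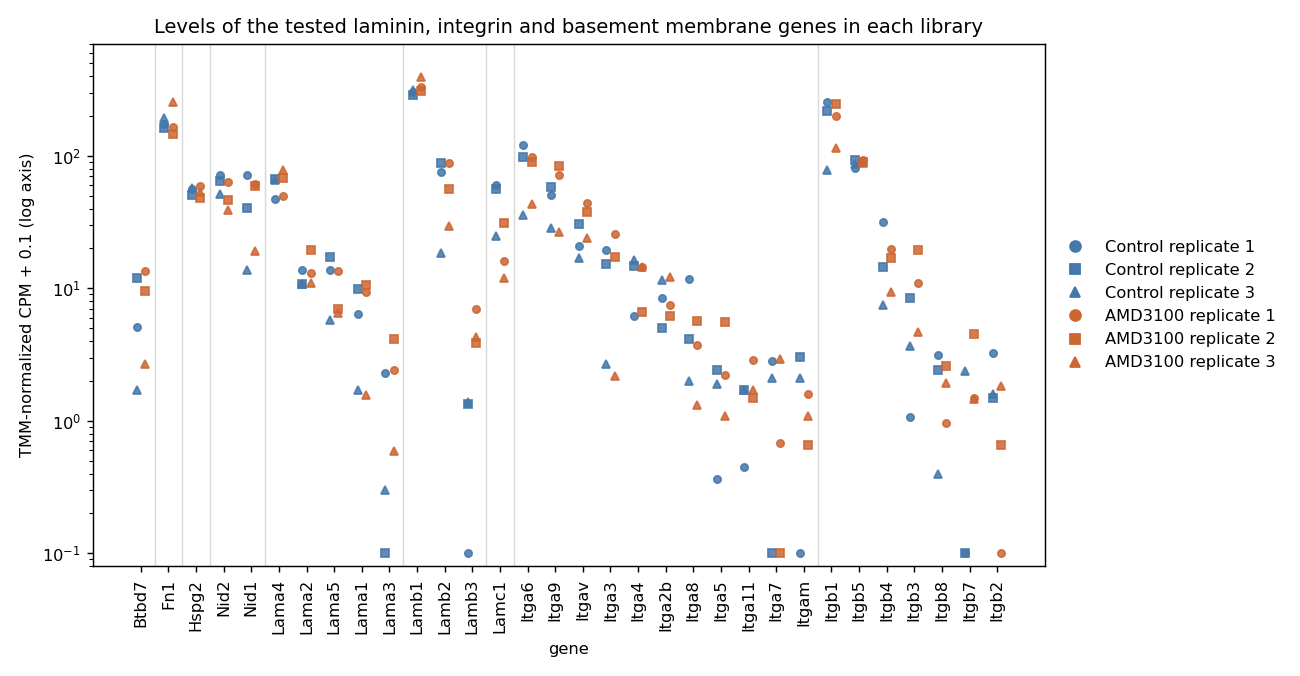
TMM-normalized CPM of 32 of the 33 members tested, plus 0.1 so that zeros can be drawn, on a log axis, with control in blue, AMD3100 in orange and a symbol for each replicate number. Vertical lines divide the genes by role, and the triangles of replicate 3 lie at the bottom of both groups for genes such as Itga3, Lama1 and Nid1.

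Nidogens and perlecan, which tie laminin to collagen IV, were not called. Nid2 had 72.2, 64.8 and 51.3 CPM in control and 63.5, 46.7 and 39.1 CPM in AMD3100. It was lower in AMD3100 in each pair with groups that overlapped, at a log2 fold change of -0.33 (SE 0.30, edgeR adjusted p = 1.0). Its 3′ end is overlapped on the other strand by 2700060E02Rik, which had 108 to 231 CPM, and whether the counting used strand is not given in the sources used here, so that reads of the 2 genes may be mixed. Nid1 had 71.1, 40.5 and 13.6 CPM in control and 61.3, 59.5 and 19.0 CPM in AMD3100 (0.16, SE 0.61), with replicate 3 low in both groups. Hspg2, by contrast, kept between 47.8 and 59.6 CPM in all 6 libraries (-0.03, SE 0.26).

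Fibronectin and Btbd7, which act in cleft formation, were not called either. Fn1 had 174, 163 and 195 CPM in control and 166, 147 and 257 CPM in AMD3100, a log2 fold change of 0.10 (SE 0.31). It was lower in AMD3100 in pairs 1 and 2 and higher in pair 3. Btbd7 had 4.99, 11.9 and 1.60 CPM in control and 13.5, 9.40 and 2.58 CPM in AMD3100 (0.46, SE 0.82). The control libraries alone ran from 16 to 164 counts of Btbd7, and the groups overlapped.

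Integrin beta chains differed in level more than in response. Itgb1, which pairs with most alpha chains, was the most abundant integrin gene, with 256, 218 and 78.7 CPM in control and 201, 247 and 114 CPM in AMD3100 (0.03, SE 0.47). Itgb5, a partner of the alpha v chain, was the steadiest, at 80.8 to 93.2 CPM in all 6 libraries (0.05, SE 0.25). Itgb4, the hemidesmosome chain that pairs with alpha 6, had 31.8, 14.5 and 7.38 CPM in control and 19.6, 17.0 and 9.21 CPM in AMD3100 (-0.23, SE 0.56). Itgb1 and Itgb4 were lowest in replicate 3 of each group, and Itgb5 was not.

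Itgb3, the other main partner of alpha v, lies at chr11:104608000-104670476 and had 0.963, 8.30 and 3.59 CPM in control and 10.9, 19.4 and 4.54 CPM in AMD3100, from 11, 114 and 36 counts and 190, 210 and 37 counts. Each AMD3100 library exceeded its control, least so in pair 3, and the groups overlapped. Its log2 fold change was 1.43 (SE 0.81, edgeR adjusted p = 1.0), not a call, and 1.61 (SE 0.66, adjusted p = 0.722), a call, with the replicate block. Without the block it was called when control replicate 2 (log2 fold change 2.35) or AMD3100 replicate 3 (1.80) was left out, and stood lower, at 0.95 without control replicate 1 and 0.85 without AMD3100 replicate 2.

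Itgav, the alpha v chain that binds fibronectin, vitronectin and latent TGF-beta, lies at chr2:83722303-83806917. It had 20.8, 30.6 and 16.8 CPM in control and 44.0, 37.7 and 23.7 CPM in AMD3100. AMD3100 was the higher of each pair, while AMD3100 replicate 3 lay below control replicate 2. The log2 fold change was 0.63 (SE 0.37, edgeR adjusted p = 1.0), not a call, and with the replicate block it was again 0.63 with a smaller error and was called (SE 0.25, adjusted p = 0.722). Without AMD3100 replicate 1, which was the highest library, it was 0.43 without the block. The 3 beta partners of alpha v other than Itgb1 and Itgb3 were Itgb5, described above, Itgb6, which was not tested, and Itgb8, with 0.299 to 3.06 CPM and a log2 fold change of -0.14 (SE 1.19).

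Of the laminin-binding alpha chains, Itga6 was the most abundant, with 121, 97.6 and 35.8 CPM in control and 98.2, 90.1 and 43.3 CPM in AMD3100 (-0.13, SE 0.48). Itga3, whose values are given above, had a log2 fold change of 0.27 (SE 0.88), and Itga7, the laminin receptor chain of muscle, had 0 to 2.82 CPM (-0.48, SE 1.89). Its counts of 31, 0, 20, 10, 0 and 23 ran close to the 26, 0, 22, 7, 0 and 15 of Mettl7b, which overlaps its 3′ end on the other strand, so that reads of these genes may be mixed and the value of Itga7 is uncertain. For these 3 chains the SE was larger than the fold change. Itga9, which binds tenascin C and the EIIIA segment of fibronectin, had 50.9, 58.3 and 28.6 CPM in control and 72.2, 83.8 and 26.8 CPM in AMD3100 (0.41, SE 0.46). It was higher in AMD3100 in pairs 1 and 2 and lower in pair 3, and antisense Gm2415 overlaps its 3′ end.

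Itga5 and Itga8, alpha chains that recognize the RGD motif with beta 1, were lower in level than Itgav. Itga5, of the classical fibronectin receptor, had 0.263, 2.33 and 1.80 CPM in control and 2.13, 5.44 and 0.982 CPM in AMD3100 (0.96, SE 1.18). Itga8, the nephronectin receptor chain of mesenchyme, had 11.6, 4.08 and 1.89 CPM in control and 3.63, 5.53 and 1.23 CPM in AMD3100 (-0.76, SE 0.87). The groups overlapped for both genes. Itga4, of the receptor for VCAM1 and fibronectin, had 6.13 to 16.4 CPM in control and 6.54 to 14.5 CPM in AMD3100 (-0.07, SE 0.51). The platelet chain Itga2b had 4.95 to 11.5 CPM in control and 6.08 to 12.03 CPM in AMD3100 (0.05, SE 0.52).

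The leukocyte chains Itgad, Itgae, Itgal, Itgam, Itgax, Itgb2 and Itgb7 and the collagen-binding chains Itga1, Itga2, Itga10 and Itga11 were low, none above 48 counts in a library. Itgam and Itgb2, which form the receptor of macrophages and neutrophils, had at most 2.91 and 3.15 CPM, and Itgb7 at most 4.42 CPM, each with an SE over 1.5 on the log2 scale. Itgb7 was called with replicates 1 and 2 only and without control replicate 3, as it had 0 counts in control replicates 1 and 2, 23 in control replicate 3 and 24, 48 and 11 in AMD3100. Itga11, a collagen receptor chain, had 0.350 to 2.76 CPM. The 9 members that did not pass the filter were Itga1, Itga2, Itga10, Itgad, Itgae, Itgal, Itgax, Itgb6 and Lamc3, and none had more than 33 counts in a library. Itgad, which had counts in control replicate 3 only (13), overlaps at its 3′ end with Cox6a2 on the other strand, and Cox6a2 had 52 counts there. Itga4 is also overlapped at the 3′ end by a gene of the other strand, Cerkl, which had at most 31 counts.

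Sums by role were each carried by a few genes, the laminin alpha sum mostly by Lama4 and the beta sum mostly by Lamb1, which were not low in replicate 3 as Lama1, Lama5 and Lamb2 were. Laminin alpha chains summed to 82.9, 105 and 83.8 CPM in control and 87.3, 109 and 97.9 CPM in AMD3100, and beta chains to 380, 380 and 336 CPM and 428, 370 and 427 CPM. Integrin alpha chains summed to 241, 234 and 125 CPM in control and 275, 254 and 132 CPM in AMD3100, and integrin beta chains to 376, 338 and 182 CPM and 327, 381 and 222 CPM, with replicate 3 lowest in each group.

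Genes that act with the members were examined as 5 lists, each of them beside the median log2 fold change of 0.02 of all genes. Of 26 basement membrane partners, among them collagen IV chains, agrin and dystroglycan, 22 were tested, 13 higher and 9 lower, with 0 called in edgeR and a median of 0.06. Frem3 and Ntn4 had no count in any library. The list was led by Sparc (827 to 1220 CPM), Agrn (0.46, SE 0.33) and Dag1 (0.10, SE 0.56). With the replicate block 1 gene was called, Col4a6, a collagen IV chain, with 1.49, 7.21 and 0.798 CPM in control and 9.68, 15.1 and 1.60 CPM in AMD3100 (block 1.60, edgeR adjusted p = 0.722), and without the block it was called when control replicate 2 was left out (2.93). Over all genes, 1.49% were called higher with the block. The 4 hemidesmosome partners, led by Cd151, Plec and Dst, had a median of 0.10 with 0 called.

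Of 34 adaptors that couple integrins to actin, 32 were tested, 9 higher and 23 lower, with 0 called and a median of -0.19. The most abundant were Flna (0.15, SE 0.27), Actn4 (-0.19, SE 0.50) and Ilk (-0.19, SE 0.45). Ilk, the integrin-linked pseudokinase, had 179, 145 and 63.6 CPM in control and 137, 139 and 64.1 CPM in AMD3100, with replicate 3 low in both groups as for Itgb1.

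Of 23 other ligands of integrins, 19 were tested, 4 higher and 15 lower, with a median of -0.14. Ctgf and Madcam1 were called lower, beside 1.28% of all genes, but Madcam1 was known to be low when the list was made and passed the filter through the control libraries, so that it adds nothing to the count. Mfge8, Fbn2 and Fbn1 were the most abundant and were not called. Mfge8, an RGD protein that binds alpha v integrins, had 438, 405 and 391 CPM in control and 498, 555 and 557 CPM in AMD3100, higher without overlap (0.38, SE 0.26). Ctgf, a matrix-associated ligand of alpha v and beta 1 integrins, had 14.6, 5.68 and 8.18 CPM in control and 1.32, 3.23 and 3.44 CPM in AMD3100. Its groups did not overlap, and its log2 fold change was -1.84 (SE 0.65, edgeR adjusted p = 1.0). With the replicate block Ctgf was also called (-1.80, edgeR adjusted p = 0.722), beside 2.9% of all genes called lower with the block. The call without the block was lost without control replicate 1 (-1.39) or AMD3100 replicate 1 (-1.51). Madcam1, a ligand of the alpha 4 beta 7 integrin of lymphocytes, was called with 25, 40 and 13 counts in control and 2, 0 and 2 counts in AMD3100 (edgeR adjusted p = 1.0), and was not called with the replicate block (adjusted p = 0.777) or when any 1 library was left out. As all AMD3100 libraries were under 3 counts, its fitted fold change is not given as a size.

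Of 8 genes of cleft formation, a list that includes the member Btbd7, 4 were higher and 4 lower, with a median of -0.01, and Snai1 was called. It was lower in AMD3100, as were 1.28% of all genes by the same thresholds. Snai1 encodes Snail, a repressor of E-cadherin, and its family member Snai2 is known to be induced through Btbd7 in clefts. Snai1 had 38.3, 40.0 and 66.7 CPM in control and 15.9, 23.0 and 34.1 CPM in AMD3100, so that the groups did not overlap. Its log2 fold change was -0.99 (SE 0.39, edgeR adjusted p = 1.0), and -1.01 (adjusted p = 0.254) with the replicate block. The call of Snai1 was lost without control replicate 3 (-0.68), AMD3100 replicate 1 (-0.76) or AMD3100 replicate 2 (-0.95). Cdh1, which encodes E-cadherin and was the most abundant of the list, had 337, 302 and 211 CPM in control and 344, 394 and 507 CPM in AMD3100 (0.55, SE 0.31), higher without overlap, and was not called. Rock1 (0.15, SE 0.34) and Fgf10 (-0.12, SE 0.39) followed in level.

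**Figure D5:**
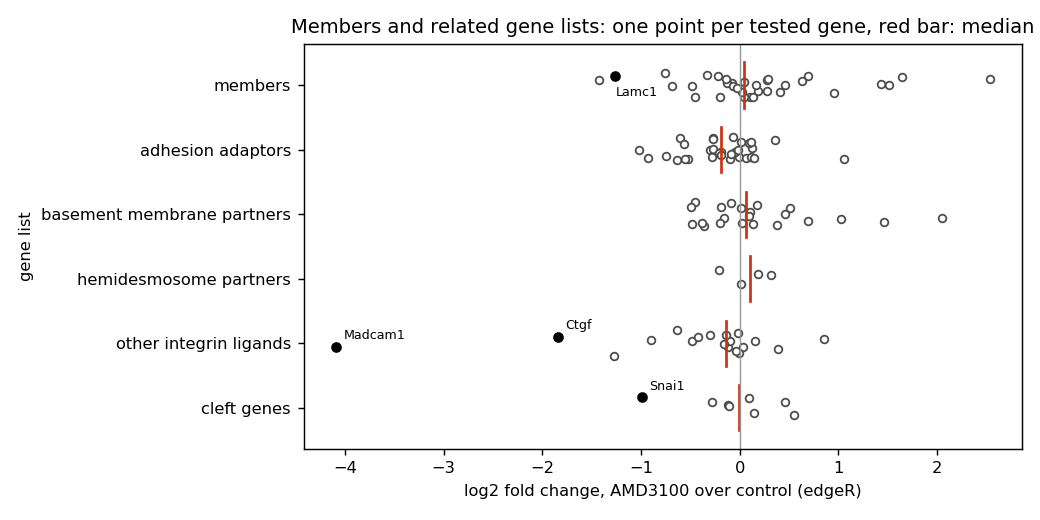
Each point is the log2 fold change of a tested gene, AMD3100 over control, for the members and the 5 lists, filled where the gene passed both thresholds, and red bars mark medians. The medians lie between -0.19 and 0.10, and the filled points, Lamc1, Madcam1, Ctgf and Snai1, lie on the side of lower values, as do 174 of the 228 calls over all genes. Madcam1 was known to be low when the lists were made, and its point is a fitted value with AMD3100 libraries under 3 counts.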

How the data were processed

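What the authors deposited were whole-number counts of reads, a file for each library and a line for each gene symbol, with no normalization. Per the submitters' processing notes, Bowtie2, edgeR and mm10 were used; the counting tool and annotation are not given in the sources used here. The authors normalized counts by quantiles with edgeR, unlogged them for fold changes and tested each gene in a separate step. Of 23282 lines per file, 22 repeats of a symbol were left out. Counts were compared between groups, taken from the labels, with edgeR 4.0.16 in R 4.3.3 (filterByExpr, TMM, glmQLFit, glmQLFTest, Benjamini-Hochberg adjustment over 13610 genes), without a block. The fits were tested on simulated data, from which no value is given here and on which no result rests. Standard errors were derived from the fold change and the F statistic.

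Deviations from group means, correlated across genes, gave 0.284, 0.259 and 0.688 for libraries of the same number (1, 2 and 3). Control 2 with AMD3100 1 gave 0.307 and control 1 with AMD3100 2 gave 0.217. As replicate 3 stood apart in both groups, replicates 1 and 2 shared the opposite deviation from the group means. These values therefore cannot decide how replicates 1 and 2 pair. The numbers, which come from the labels, were taken as pairs.

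Other settings tried were the replicate block, normalization by upper quartiles, DESeq2 1.42.0, limma-voom (limma 3.58.1) on quantile-normalized values, a minimum of 10 counts in each library or no filter at all, the ribosomal RNA precursor Rn45s left out, replicates 1 and 2 only, and each library left out.

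Members, lists and alternatives were chosen with earlier results of these data known, among them the low Madcam1 and the standing apart of replicate 3. Members named with all values were a set of laminin, nidogen, cleft and integrin genes plus those called with or without the block or without overlap; 1 such gene is counted among the members but not reported here. From each list, genes past the thresholds, the 3 most abundant and markers at 0 everywhere were named. The platelet, endothelium, leukocyte, nerve, cartilage and erythroid lists are given among the other observations. Other genes named were chosen after their values were seen.

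Positions and promoters came from RefSeq tables on GRCm38, which matched all 42 members for positions. Genes overlapping the last 300 bases of a member came from GENCODE vM1, without its coordinates. Protein sequences and the study's imaging, qPCR and methylation data were not used here.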

Additional observations from a re-analysis of the deposited data

How the results depend on the processing

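Under the alternatives, 0 members had an adjusted p-value under 0.05 in any fit, by edgeR, DESeq2 or limma-voom. All genes past both thresholds numbered 228, and 325 with DESeq2, 312 with limma-voom, 598 with the replicate block, 613 with replicates 1 and 2 only and 163 to 547 with a library left out. Members past both thresholds numbered 1, and 2 with DESeq2, 2 with limma-voom after quantile normalization, 3 with the replicate block, 2 with replicates 1 and 2 only and 0 to 2 with a library left out. Their median log2 fold change of 0.05 moved to 0.12 with the replicate block and from -0.047 to 0.20 with a library left out. Members without overlap numbered 1, against 7.44% of all genes, and 2 with limma-voom (7.09%), 0 at a minimum of 10 counts (6.96%), 12 of 32 with replicates 1 and 2 only (37.1%) and 3 to 7 with a library left out (12.9% to 23.2%).

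Of 173 values of 22 named members under alternatives other than leaving out a library, 163 kept direction and side of the threshold. The 6 that reversed were Fn1 (-0.11), Itgb1 (-0.086) and Hspg2 (0.0041) with replicates 1 and 2 only, Lamb2 (0.065) and Itgb4 (0.0013) with limma-voom, and Lamb2 (0.066) with the replicate block. The other 4 became calls, as given beside Lamb3, Itgav and Itgb3. The replicate block changed no other call of a named member. With a library left out, 12 named members changed sign, with log2 fold changes from -0.19 to 0.26 for Fn1, -0.049 to 1.37 for Btbd7, -0.17 to 0.85 for Lama1, -0.037 to 0.30 for Lama4, -0.52 to 0.30 for Lamb2, -0.26 to 0.78 for Nid1, -0.11 to 0.054 for Hspg2, -0.34 to 0.33 for Itgb1, -0.59 to 0.48 for Itgb4, -0.38 to 0.78 for Itga3, -0.50 to 0.21 for Itga6 and -1.25 to 0.20 for Itga8. Without a change of sign, Lama3 ran from 0.82 to 4.44, Itga5 from 0.095 to 1.46, Itgb3 from 0.85 to 2.35, Itgav from 0.43 to 0.91, Lama5 from -0.88 to -0.12, Itga9 from 0.11 to 0.75 and Nid2 from -0.55 to -0.20. Likewise, Lamb1 ran from 0.069 to 0.26, Lamb3 from 1.95 to 2.96 and Lamc1 from -1.76 to -1.01. The muscle markers Myog (-4.09 to 2.09, and 0.31 without AMD3100 replicate 1, 0.32 without AMD3100 replicate 2) and Myod1 (-4.14 to 0.54) also changed sign. Madcam1 was called without the block but not without the filter, nor with replicates 1 and 2 only. The cause was not tested. There were 3 libraries per group with a biological coefficient of variation of 0.579, and the size of change that could have been detected was not tested.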

Other observations

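Other cell types of the gland were followed by marker lists. The 10 erythroid markers, led by Hba-a1, were all lower in AMD3100 by edgeR's estimate, with a median log2 fold change of -0.44 and 0 called, and summed to 8661, 22599 and 13491 CPM in control replicates 1 to 3 and 8270, 13135 and 13478 CPM in AMD3100 replicates 1 to 3. Control replicate 2 held the highest sum, and the values of single globin genes are uncertain, as several are near-identical copies. Of 10 endothelium markers, led by Eng, 9 were tested, 3 higher and 6 lower, with sums of 74.7, 49.5 and 89.2 CPM and 50.6, 89.96 and 68.2 CPM. The 10 leukocyte markers, led by Csf1r, were 5 higher and 5 lower, with sums of 135, 97.1 and 236 CPM and 111, 131 and 179 CPM. The higher sums of replicate 3 were those of Laptm5 (50.2 and 56.5 CPM), Lyz2 (61.8 and 22.2 CPM), Aif1 (30.02 and 19.9 CPM) and Cd68 (25.2 and 21.0 CPM). Ptprc, Adgre1 and Fcer1g were lowest there in both groups. Of 8 platelet markers, led by Gp1bb, 2 were tested and Gp9 had no count in any library, with sums of 38.2, 25.9 and 16.0 CPM and 37.0, 34.3 and 24.2 CPM. Of 10 cartilage markers, led by Sox9, 7 were tested, with sums of 407, 449 and 221 CPM and 487, 486 and 213 CPM.

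Across the marker lists 2 genes were called without the block, both lower, beside 1.28% of all genes called lower and 1.68% called either way. Mest, an imprinted gene of mesenchyme, had 443, 559 and 512 CPM in control and 363, 292 and 268 CPM in AMD3100 (log2 fold change -0.71, SE 0.28, edgeR adjusted p = 1.0). Fabp7, of glial precursors, had 12.1, 16.9 and 47.2 CPM in control and 5.53, 5.44 and 10.7 CPM in AMD3100 (-1.82, SE 0.58, edgeR adjusted p = 1.0). Neither gene's groups overlapped. The call of Mest was lost without control replicate 2 (-0.63), AMD3100 replicate 2 (-0.67) or AMD3100 replicate 3 (-0.64), and that of Fabp7 without control replicate 3 (-1.0). The nerve list to which Fabp7 belongs was 5 higher and 5 lower, with sums of 893, 759 and 898 CPM and 816, 634 and 1283 CPM, led by Prph. With the replicate block Krt15 (log2 fold change 0.62) was also called higher and Twist1 (-0.97), Myog (-1.16) and Myod1 (-2.05) lower, with edgeR adjusted p-values from 0.468 to 0.722. With that block 1.49% of all genes were called higher and 2.9% lower. Myog had 41.1, 40.0 and 521 CPM in control and 13.9, 9.95 and 485 CPM in AMD3100, and Myod1 had 6.22, 7.21 and 42.7 CPM and 2.02, 0 and 27.1 CPM, so that their estimates without the block swung with the replicate 3 libraries.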
